A study of Mus musculus with 48 samples.

Results

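The clustered protocadherins are 58 of the 24444 genes in a table of cortical gene expression from WT and Chd8 V986*/+ mice. They were chosen by symbol alone, as every gene named Pcdha, Pcdhac, Pcdhb, Pcdhga, Pcdhgb or Pcdhgc followed by a number, so no measured value entered the choice. They comprise 14 alpha, 22 beta and 22 gamma genes. RNA-seq had been performed on cerebral cortex dissected from one hemisphere of male mice at embryonic day 14.5 (E14.5), 1 month, 6 months and 12 months, with 6 WT and 6 heterozygous (HET) mice at each age and 48 mice in all. All mice were on the C57BL/6J background. HET mice carried one copy of a Chd8 allele in which CRISPR/Cas9 insertion placed tandem stop codons at V986, and the controls were WT littermates without it. Chd8 encodes a chromatin remodeler. The study asked how loss of one Chd8 copy alters cortical gene expression across life.

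Protocadherins of these clusters are cell surface adhesion proteins related to the cadherins. In the alpha and gamma clusters each variable exon has its own promoter and is spliced to constant exons shared by the whole cluster, whereas each beta gene is a single exon of its own. Most promoters are chosen stochastically and in different combinations from neuron to neuron, a choice that depends on the insulator protein CTCF, on cohesin and on DNA methylation. The resulting set of isoforms binds like to like between cells and gives a neuron an identity by which its branches recognize and avoid each other. The C-type genes (Pcdhac1, Pcdhac2, Pcdhgc3, Pcdhgc4 and Pcdhgc5), at the end of the alpha and gamma clusters, are expressed more uniformly. Bulk tissue averages all such choices, and fewer cells of a type cannot be told apart here from less RNA per cell.

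The clusters lie in tandem on mouse chromosome 18 on the plus strand (mm9), with the larger alpha gene model at 37089939 to 37347311, the beta genes at 37424652 to 37681073 and the gamma gene model at 37833989 to 38001527. The mm9 annotation (GENCODE) holds 10 alpha transcripts in that model, 1 in a separate Pcdha3 model and 10 gamma transcripts in 1 model. These are fewer than the 14 alpha and 22 gamma members of the deposited table, which lists each isoform as a gene of its own. How well a read separates members therefore differs between the clusters. Of all 50-base windows of a transcript, a median of 92.8% occurred in no other annotated transcript among 25 beta transcripts, 69.3% among 11 alpha transcripts and 55.3% among 10 gamma transcripts. Values of alpha and gamma members thus depend more on how reads in the constant exons were divided between isoforms. Isoforms absent from the annotation did not enter these shares of windows. The 4 bases CGCT, the core of a sequence element shared by most clustered protocadherin promoters, occurred on either strand between 250 bases before and 50 bases after the annotated start of 11 of 11 alpha transcripts, 22 of 22 beta genes and 9 of 10 gamma transcripts. The same letters were in 67.5% of 22380 protein-coding genes, so a match describes the window and marks no bound site.

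Values were variance-stabilized (VST) expression on a log2 scale, whose most frequent value, 2.1433, was taken as the floor of undetected genes. Since VST values are not per length, levels are compared between groups for one gene and never between genes. Chd8 itself was lower in HET mice at each age, with log2 differences of -0.63 at E14.5 (SE 0.08, limma adjp 0.026), -0.67 at 1 month (SE 0.05, adjp 3.0e-06), -0.64 at 6 months (SE 0.04, adjp 1.1e-07) and -0.54 at 12 months (SE 0.06, adjp 0.0026). The WT and HET mice did not overlap in Chd8 at any age. Markers of cortex were well above the floor in all groups, with none of the 10 within 0.5 of it at E14.5, whereas markers of midbrain, hindbrain and spinal cord varied between E14.5 mice, as described with the genotype results.

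All C-type genes changed in WT mice between E14.5 and 1 month, in opposite directions and by very different amounts. Pcdhgc5, the last gene of the gamma cluster, rose in WT mice by 3.28 (SE 0.09, limma adjp 1.3e-22), which is 9.74-fold on the linear scale. Its 6 WT mice ranged from 8.50 to 9.01 with a median of 8.90 at E14.5, and from 12.00 to 12.30 with a median of 12.08 at 1 month. The HET mice ranged from 8.56 to 8.97 and from 12.00 to 12.17, so the ages were far apart in both genotypes and the genotypes overlapped at each age. Its neighbors Pcdhgc3 and Pcdhgc4 moved the other way.

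Pcdhgc3, a gamma isoform that promotes dendrite arborization, fell by 0.40 in WT mice from E14.5 to 1 month (SE 0.06, limma adjp 2.0e-06). Its WT values ran from 11.84 to 12.14 with a median of 12.07 at E14.5 and from 11.51 to 11.75 with a median of 11.64 at 1 month, and the ages did not overlap. Pcdhgc4, an isoform linked to neuronal survival, fell by 0.33 (SE 0.10, adjp 0.0033). Its E14.5 mice were widely spread, from 9.64 to 10.43 with a median of 10.23, and overlapped the 1-month mice at 9.74 to 9.89 with a median of 9.79. Within genotypes, Pcdhgc4 correlated over the 12 E14.5 mice with the mean of midbrain, hindbrain and spinal cord markers (Pearson's r 0.73). WT replicates 6 and 1, which had the lowest such means among WT mice, stood at 9.64 and 9.85. The part of such tissue in this fall was not tested.

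Of the alpha C types, Pcdhac2, needed for the even spacing of serotonergic axons, rose by 1.43 in WT mice (SE 0.10, limma adjp 3.2e-13) and Pcdhac1 by 0.97 (SE 0.10, adjp 1.7e-09). WT mice ranged from 8.96 to 9.43 (median 9.20) at E14.5 and from 10.41 to 10.83 (median 10.63) at 1 month for Pcdhac2, and from 7.43 to 7.97 (median 7.80) and from 8.59 to 8.92 (median 8.68) for Pcdhac1. For both genes every 1-month mouse lay above every E14.5 mouse. In HET mice Pcdhgc5 rose by 3.28, Pcdhac2 by 1.4 and Pcdhac1 by 0.90, and Pcdhgc3 and Pcdhgc4 fell by 0.45 and 0.27 (SE 0.06 to 0.07).

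**Figure D1:**
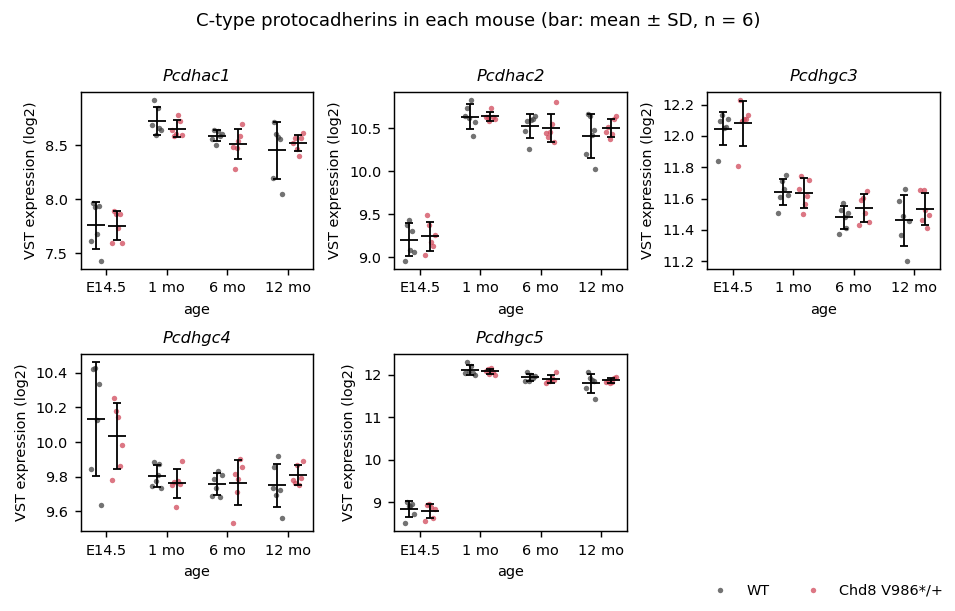
VST expression (log2) of the 5 C-type genes in each mouse by age, with WT in grey and Chd8 V986*/+ in red; bars give the mean ± SD of 6 mice. Pcdhgc5, Pcdhac1 and Pcdhac2 stood higher at 1 month than at E14.5 without overlap, Pcdhgc3 stood lower, and the genotypes overlapped for all 5 genes at all 4 ages.

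Over all members, 49 of 58 changed in WT mice between E14.5 and 1 month at limma adjp below 0.1, 42 higher and 7 lower. Since 85.5% of the 17341 genes tested changed in this step, the number of members called is close to the background. The direction was less even than in all genes, where 43.9% were called higher and 41.7% lower. The median member change was 0.36, against 0.03 over all genes tested. Changes of at least 1 were found in 7 members, all higher, against 22.7% of all genes higher and 17.4% lower at that size. All 7 passed the test, and they comprised Pcdhac2, Pcdhgc5 and 5 beta genes.

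The clusters differed in how uniformly they moved. All 14 alpha members rose, by 0.40 (Pcdha2) to 1.43 (Pcdhac2), with a median of 0.77. The 12 alpha members other than the C types kept within 0.40 to 0.93, and for 13 of the 14 alpha members every 1-month WT mouse lay above every E14.5 mouse. Such a gap upward was found in 9 beta and 6 gamma members and in 34.9% of all genes, and a gap downward in 1 beta and 2 gamma members and in 33.2% of all genes. Alpha members share the reads of their constant exons and varied together between mice, so these counts are not over separate observations. Averaged over the 14 alpha genes within each mouse, WT expression was 7.94 ± 0.25 (SD, n = 6) at E14.5 and 8.72 ± 0.11 at 1 month, and HET expression was 7.85 ± 0.23 and 8.66 ± 0.09.

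Of the 22 beta members 16 rose and 3 fell, with a median change of 0.47. The largest increases were in Pcdhb12, by 2.28 (SE 0.13, limma adjp 2.2e-15, 4.87-fold), and Pcdhb13, by 2.0 (SE 0.12, adjp 6.6e-15). Pcdhb12 ran from 5.19 to 6.16 (median 5.63) in WT mice at E14.5 and from 7.67 to 8.26 (median 7.92) at 1 month, and Pcdhb13 from 5.09 to 5.79 (median 5.47) and from 7.18 to 7.78 (median 7.40), with a wide gap between the ages for both. Pcdhb4 fell by 0.65 (SE 0.18, adjp 0.0016), Pcdhb8 by 0.46 (SE 0.11, adjp 0.00057) and Pcdhb7 by 0.26 (SE 0.11, adjp 0.035). WT mice overlapped between the ages for Pcdhb4, at 6.77 to 7.55 (median 7.08) against 5.75 to 6.94 (median 6.70), and did not for Pcdhb8, at 6.05 to 6.35 (median 6.17) against 5.38 to 5.96 (median 5.75). In HET mice Pcdhb8 stood at 87% of its E14.5 level at 1 month, did not pass and overlapped between the ages.

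Large beta increases were in neighboring genes. In the 7 consecutive genes from Pcdhb9 to Pcdhb15 the changes ran from 0.84 to 2.28, with their peak at Pcdhb12, and in the 7 genes from Pcdhb16 to Pcdhb22 they ran from 0.04 to 0.61. Pcdhb4, Pcdhb7 and Pcdhb8, which fell in WT mice, lie before Pcdhb9. In HET mice the same stretches ran from 0.81 to 2.28 and from 0.01 to 0.78. These stretches were delimited after the values were seen, and position along the cluster was not tested.

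The 22 gamma members changed least, with 12 higher, 4 lower and a median change of 0.17. The A-type genes ran from -0.10 to 0.40, and the B-type genes from -0.55 to 0.29. Pcdhgb6 fell by 0.55 (SE 0.06, limma adjp 4.5e-09), from 9.95 to 10.32 (median 10.20) in WT mice at E14.5 to 9.56 to 9.71 (median 9.63) at 1 month, without overlap. Pcdhgb7 also fell, by 0.35 (SE 0.06, adjp 1.7e-05).

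**Figure D2:**
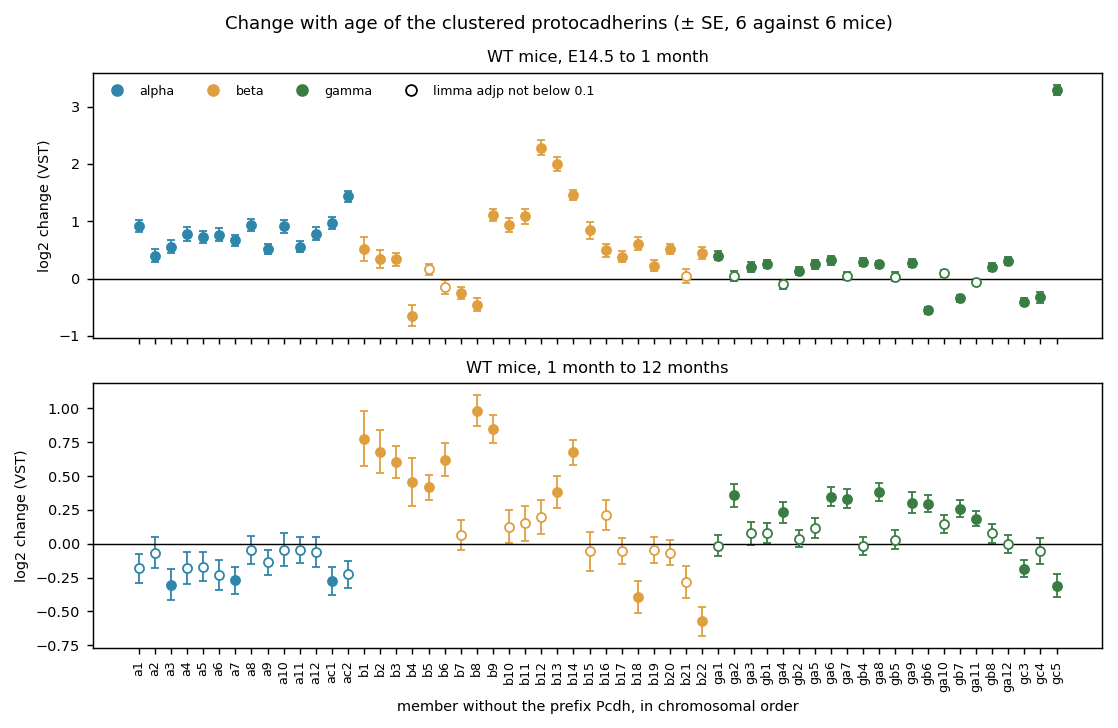
Log2 change of each member in WT mice, with its SE, from E14.5 to 1 month (top) and from 1 to 12 months (bottom), in chromosomal order; filled points passed limma adjp below 0.1. In the top panel all 14 alpha genes lie above 0, Pcdhb12 at 2.28 and Pcdhgc5 at 3.28 stand out; in the bottom panel genes at the start of the beta cluster rose and Pcdhb22 is at -0.57.

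Cell composition markers moved strongly in the same step. In WT mice 9 of 10 neuronal markers rose (median 2.85), as did 8 of 8 astrocyte markers (median 3.97), 10 of 10 oligodendrocyte lineage markers (median 5.0) and 7 of 7 microglial markers (median 2.67), and 9 of 9 neural progenitor markers fell (median -4.06). The summed level of the 10 oligodendrocyte markers, on a log2 scale, ran from 11.62 to 11.90 in WT mice at E14.5 and from 17.54 to 17.96 at 1 month. The summed level of 35 midbrain, hindbrain and spinal cord markers had a WT median of 12.33 at E14.5 and 9.04 at 1 month. The part of all these markers in the changes of the protocadherins was not tested.

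Genes that act on or beside the locus also changed from E14.5 to 1 month. Of 11 CTCF and cohesin genes, which fold the locus and bring enhancers to the chosen promoters, 10 fell and none rose (median -1.11), and Ctcf, the insulator protein itself, fell by 1.07 (SE 0.05, limma adjp 1.2e-17). Of 17 silencing and DNA methylation genes tested, 16 fell and 1 rose (median -1.35). Uhrf1, which guides maintenance methylation, fell by 5.59 (SE 0.16, adjp 3.3e-22), Smchd1, a repressor of the clusters, by 1.37 (SE 0.07, adjp 6.5e-17), and Dnmt3b, a de novo methyltransferase acting on their promoters, by 2.36 (SE 0.20, adjp 1.9e-11). Ctcf, Smchd1 and Dnmt3b were picked after their values were seen. Of all genes tested, 41.7% were called lower and 43.9% higher in this step. The part of the changed cell composition described above in these falls was not tested, nor was any link to the protocadherin changes.

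Other lists were mixed. Among 14 non-clustered protocadherins 8 rose and 4 fell (median 0.64), and Pcdh12, an endothelial one, fell by 3.29. Among 23 processing enzymes and intracellular partners 14 rose and 9 fell, with Ptk2b, a kinase that gamma protocadherins inhibit, higher by 7.64. Among 19 other neuronal recognition molecules 7 rose and 9 fell, and Celsr1, a cadherin of planar cell polarity, fell by 4.23 and Dchs1, a giant cadherin, fell by 3.66 (limma adjp 3.5e-31 to 1.7e-16 over these 4 named genes). Of 13 genes next to the locus, 5 rose and 6 fell (median 0.04).

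After 1 month the clusters separated. From 1 to 6 months in WT mice 17 members changed, 16 higher and 1 lower, against 14.8% of all genes called, 6.86% higher and 7.91% lower. No alpha member passed (1 of 14 by limma at an unadjusted p below 0.05, against 23.6% of all genes), whereas 8 beta and 8 gamma members rose and 1 beta member fell. The median change was -0.11 for alpha, 0.18 for beta and 0.11 for gamma members, and 0.01 over all genes tested. The count fell to 10 without replicate 4 and also to 10 without replicate 5.

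The largest increases were in beta genes at the start of the cluster. Pcdhb8 rose by 0.65 (SE 0.11, limma adjp 0.00033), to 6.11 to 6.64 (median 6.38) in WT mice at 6 months, above every 1-month mouse. Pcdhb9 rose by 0.49 (SE 0.10, adjp 0.0025), from 8.10 to 8.77 (median 8.28) to 8.75 to 8.94 (median 8.82), and the groups just overlapped. Pcdhb1, close to the floor, rose by 0.74 (SE 0.20, adjp 0.019), from 2.21 to 3.27 (median 3.05) to 3.45 to 4.09 (median 3.69), without overlap.

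Pcdhb22, the last gene of the cluster, was the member that fell, by 0.32 (SE 0.11, limma adjp 0.060), from 7.75 to 8.09 (median 7.94) to 7.39 to 7.77 (median 7.62), with a slight overlap. This call was lost without replicate 1, 4, 5 or 6 in turn (adjp 0.11 to 0.16). Among the gamma members the rises were small, with the largest in Pcdhgb6, by 0.32 (SE 0.06, adjp 0.0011), which had fallen between E14.5 and 1 month. Of the 3 gamma C-type genes none passed.

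From 6 to 12 months 0 of 58 members passed in WT mice by limma at adjp below 0.1 (7 members at an unadjusted p below 0.05, all beta, against 7.4% of all genes), and 2 of 17341 genes did (0.0115%). In HET mice 0 members passed by limma (6 at an unadjusted p below 0.05, against 13.3% of all genes), against 1.88% of 17291 genes, and 1 passed when replicate 2 was left out. The 1-month mice were therefore also compared with the 12-month mice, a contrast added after the data were seen, which shares the 1-month mice with the step above.

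From 1 to 12 months in WT mice 19 members rose and 7 fell, against 10.3% and 11.8% of all genes (22.1% in all). The 19 were 10 beta and 9 gamma members. Pcdhb8 rose by 0.98 (SE 0.11, limma adjp 7.2e-07, 1.98-fold), to 6.41 to 7.0 (median 6.72), and Pcdhb9 by 0.85 (SE 0.10, adjp 1.9e-06), to 9.01 to 9.35 (median 9.24). Neither overlapped its 1-month values. Over the 9 genes from Pcdhb1 to Pcdhb9 the changes ran from 0.07 to 0.98 with a median of 0.62, and over Pcdhb16 to Pcdhb22 from -0.57 to 0.21 with a median of -0.07, stretches again set after the values were seen. Between them Pcdhb13 and Pcdhb14 also rose, by 0.38 and 0.68. In HET mice the stretch from Pcdhb1 to Pcdhb9 had a median of 0.74, and that from Pcdhb16 to Pcdhb22 a median of 0.05, with 2 members higher and 1 lower.

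The 7 that fell were Pcdha3, Pcdha7, Pcdhac1, Pcdhb18, Pcdhb22, Pcdhgc3 and Pcdhgc5. Pcdhb22 fell by 0.57 (SE 0.11, limma adjp 0.00045), to 7.12 to 7.61 (median 7.35), below every 1-month mouse. Pcdhb18 fell by 0.39 (SE 0.12, adjp 0.022), and Pcdhgc5 by 0.31 (SE 0.09, adjp 0.016), a small loss beside its earlier gain. The changes of Pcdhac1 (-0.27, adjp 0.070) and Pcdhgc3 (-0.18, adjp 0.052) lost the call when 1 replicate was left out, replicate 1, 4 or 6 for Pcdhac1 (adjp up to 0.21) and replicate 2, 3 or 5 for Pcdhgc3 (adjp up to 0.29).

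**Figure D3:**
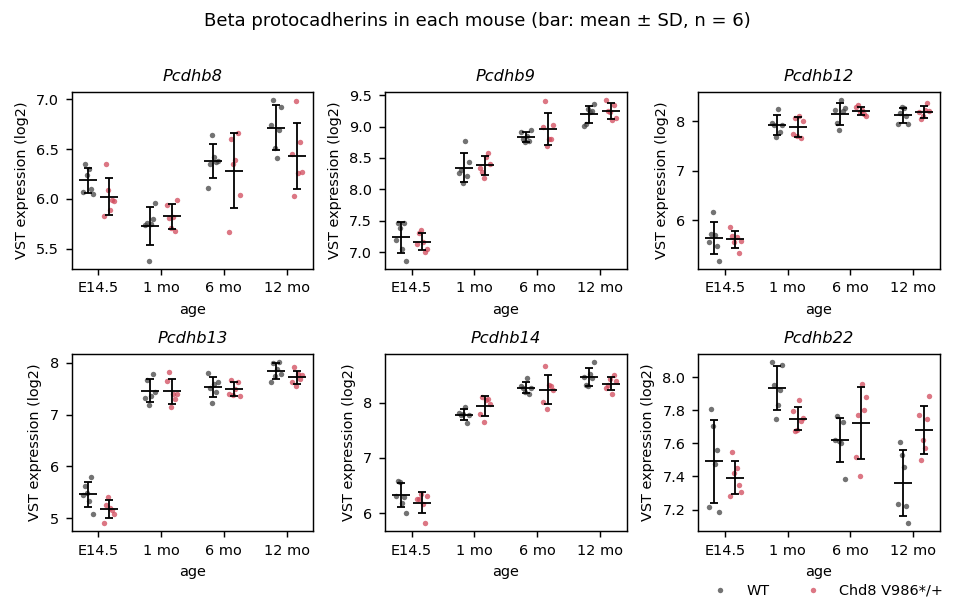
VST expression (log2) of 6 beta members in each mouse by age, with WT in grey and Chd8 V986*/+ in red; bars give the mean ± SD of 6 mice. Pcdhb12, Pcdhb13 and Pcdhb14 rose mainly between E14.5 and 1 month, Pcdhb8 and Pcdhb9 were higher at 12 months than at 1 month, and Pcdhb22 fell in WT mice from a median of 7.94 at 1 month to 7.35 at 12 months.

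Neuronal, oligodendrocyte lineage and microglial markers moved less in adulthood, but other markers varied widely between postnatal mice. On a log2 scale, the summed level of 7 choroid plexus markers at 1 month ran from 9.29 to 13.65 in WT mice (median 10.49). In HET mice it ran from 9.57 to 13.96 (median 12.60). The sum of 12 markers of ganglionic eminence and striatum ran from 12.82 to 14.31 in WT and from 13.50 to 14.14 in HET mice at 1 month. From 1 to 6 months in WT mice 10 of 10 oligodendrocyte lineage markers fell (median -0.67), 1 of 10 neuronal markers rose and 1 fell, and 3 of 7 microglial markers fell. From 1 to 12 months 7 of 12 markers of ganglionic eminence and striatum rose (median 0.61). The part of these differences in the protocadherin changes was not tested. Of the CTCF and cohesin genes 1 rose and 1 fell from 1 to 6 months, and of the silencing and DNA methylation genes 5 fell, among them Uhrf1 by 0.76 (SE 0.16, limma adjp 0.0020) and Dnmt3a, the main de novo methyltransferase of the adult brain, by 0.51 (SE 0.10, adjp 0.0017). Pcdh12 fell by 0.92, and Celsr1 and Cdhr2 rose by 0.59 and 0.57 (adjp 0.00050 to 0.075). From 1 to 12 months Uhrf1 fell by 1.2, Pcdh12 by 0.96, Tet1 by 0.84 and Tet3, like Tet1 an enzyme that oxidizes methylated cytosine, by 0.70, and Cdhr2 rose by 0.72 (adjp 3.4e-06 to 0.015). None of the 13 genes next to the locus passed in either of these WT comparisons (0 and 1 at an unadjusted p below 0.05).

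HET mice, which share no animals with WT mice, were compared over the same ages. From E14.5 to 1 month 41 members rose and 6 fell (44.5% and 42.1% of all genes, 86.5% in all), and 40 members rose in both genotypes, which is 95.2% of those that rose in WT and 97.6% of those that rose in HET mice. From 1 to 6 months 16 rose and 3 fell in HET mice (11% and 10.8% of all genes, 21.8% in all), with 12 of the rises shared (75% of each list) and none of the falls. From 1 to 12 months 25 rose and 3 fell (16.9% and 17.4% of all genes, 34.3% in all), and 18 of the rises were shared, 94.7% of the WT and 72% of the HET list. Over all genes, 95.4%, 66.6% and 63.1% of those that rose in WT mice also rose in HET mice in these comparisons, and 94.5%, 41.5% and 38.7% of those that rose in HET mice also rose in WT mice. The change had the same sign in both genotypes in 55, 48 and 48 of 58 members (94.8%, 82.8% and 82.8%), beside 95.5%, 76% and 71.1% of all genes. From E14.5 to 1 month the members were thus close to the background.

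**Figure D4:**
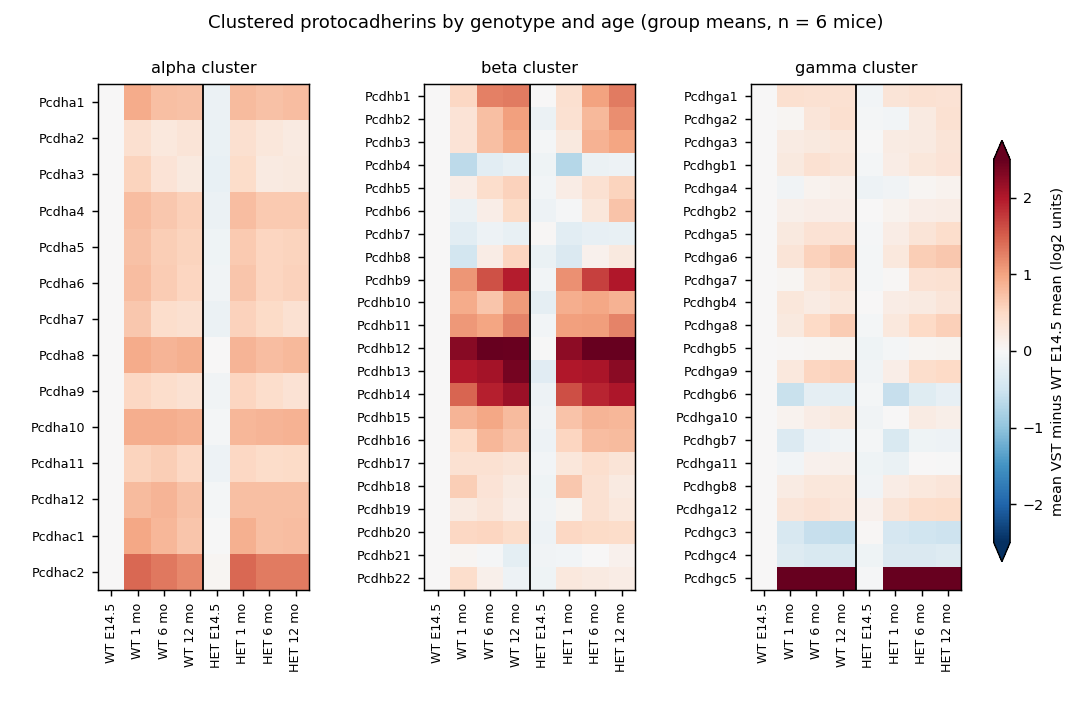
Mean VST expression of each member in each group minus its WT E14.5 mean (log2 units, red higher and blue lower, 6 mice per group), with members in chromosomal order; the color scale ends at 2.5, which Pcdhgc5 passes at all postnatal ages. WT and HET columns of the same age look alike, and the alpha cluster is higher throughout after birth.

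Between genotypes no clustered protocadherin passed at any age when each age was fitted on its own 12 mice. By limma at adjp below 0.1 the count was 0 of 57 members tested at E14.5 (background 0.00593% of genes), 0 of 58 at 1 month (0.139%), 0 of 58 at 6 months (0.0927%) and 0 of 58 at 12 months (0.0463%). At an unadjusted p below 0.05 there were 1, 2, 2 and 5 members, against 4.56%, 8.8%, 7.59% and 11.6% of all genes. In no member were the 6 WT and 6 HET mice free of overlap at any age, which occurred in 0.261%, 0.825%, 0.527% and 0.868% of all genes. Pcdhb1 was below the expression filter at E14.5 and was not tested there.

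The differences were small beside their errors. The median size of the difference, without sign, was 0.09, 0.06, 0.06 and 0.05 at the 4 ages, and the median SE was 0.12, 0.07, 0.07 and 0.08. No pathway list gene passed at any age by limma either. CTCF and cohesin genes had 0, 0, 0 and 1 of 11 at an unadjusted p below 0.05, and silencing and DNA methylation genes 0, 2, 1 and 1 of 17 or 18.

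At E14.5 the differences leaned to one side, with 50 of 57 members lower in HET than in WT mice, against 49.6% of all genes. Members varied together between mice, as described below, so such counts, here and at the other ages, are not over separate observations. The median difference was -0.10 for alpha, -0.10 for beta and -0.05 for gamma members, and 0.00 over all genes. Pcdhb13 had the smallest p, at -0.29 (SE 0.13, unadjusted p = 0.045, limma adjp 0.98). Its HET mice ran from 4.90 to 5.41 (median 5.18) and its WT mice from 5.09 to 5.79 (median 5.47), with overlap. Of the C-type genes, Pcdhgc5 and Pcdhac1 had almost equal means in both genotypes (8.83 and 8.80, 7.76 and 7.76).

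Markers of tissue behind the forebrain also leaned lower in HET mice at E14.5. Of 35 markers of midbrain, hindbrain and spinal cord, 27 passed the filter at E14.5, with a median genotype difference of -1.07, and 10 of the 27 had an unadjusted p below 0.05 and 0 an adjp below 0.1. Their mean ran from 3.87 to 7.34 in the WT mice (median 5.39) and from 3.87 to 5.18 in the HET mice (median 4.31), and 6 and 17 of the 35 lay within 0.5 of the floor in the group means. On the log2 scale of their summed level the range was 11.18 to 13.16 in WT and 11.16 to 12.02 in HET mice.

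Within genotypes, 57 of 58 members correlated positively with that mean over the 12 E14.5 mice (median Pearson's r 0.52), against 47.4% of all genes (median -0.03). This is a description over 12 libraries that share their dissection and depth, and over members that varied together. The mean of the 58 members was highest in replicates 2 and 3 of both genotypes (8.27 and 8.26 in WT, 8.20 and 8.15 in HET mice). The part of a shared effect of the replicate number in this correlation was not tested. With the marker mean as a covariate, 14 of 57 members were lower in HET mice (47.6% of all genes) and the median became 0.05. The marker mean itself differed between the genotypes, so genotype and marker level cannot be told apart in these mice. The part of such tissue in the lean was not tested. Leaving out 1 mouse at a time gave 41 members lower (without HET replicate 1) to 55 (without WT replicate 1).

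At 1 month 43 of 58 members were lower in HET mice (51.4% of all genes), with medians of -0.07 for alpha, -0.01 for beta and -0.04 for gamma members. The part of the varying choroid plexus and striatal markers, described above, in this count was not tested. Pcdhb22 was lower in HET mice, at -0.19 (SE 0.07, unadjusted p = 0.019, limma adjp 0.46), with HET mice at 7.68 to 7.86 (median 7.74) and WT mice at 7.75 to 8.09 (median 7.94). Pcdhb19 was also lower, at -0.17 (SE 0.07, unadjusted p = 0.023, limma adjp 0.48). At 6 months 31 of 58 members were lower (50.4% of all genes), and the count ran from 26 to 41 when 1 mouse was left out. Pcdhb10 was higher in HET mice by 0.27 (SE 0.10, unadjusted p = 0.013, adjp 0.52), at 6.88 to 7.43 (median 7.22) against 6.77 to 7.08 (median 6.94), and at 12 months it was lower, at -0.19 (SE 0.09, unadjusted p = 0.043, adjp 0.42), so that its sign turned. Pcdha11 was lower at 6 months, at -0.15 (SE 0.07, unadjusted p = 0.046, limma adjp 0.65).

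At 12 months 20 of 58 members were lower (48.6% of all genes), with medians of 0.00, 0.03 and 0.01 for the clusters. This count rested on 1 mouse, since 36 of 58 members were lower without WT replicate 6, and 19 to 25 were lower without any other mouse. Pcdhb22 and its neighbor Pcdhb21 had the smallest p values. Pcdhb22 was higher in HET mice by 0.32 (SE 0.10, unadjusted p = 0.0052, limma adjp 0.27), at 7.50 to 7.89 (median 7.68) against 7.12 to 7.61 (median 7.35). In a single fit of all 48 mice, where 520 genes passed instead of 8, Pcdhb22 passed at 12 months (limma adjp 0.081). Pcdhb21 was higher by 0.34 (SE 0.12, unadjusted p = 0.0096, adjp 0.29), at 6.53 to 6.77 (median 6.65) against 5.93 to 6.62 (median 6.39). Both genes had HET mice inside the WT range. Pcdhb6 was higher by 0.24 (SE 0.11, unadjusted p = 0.040, limma adjp 0.41), at 6.32 to 6.71 (median 6.51) against 6.02 to 6.50 (median 6.25). Pcdhga11 was lower, at -0.13 (SE 0.05, unadjusted p = 0.020, adjp 0.35) and was 1 of 7 members lower in HET mice at all 4 ages.

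**Figure D5:**
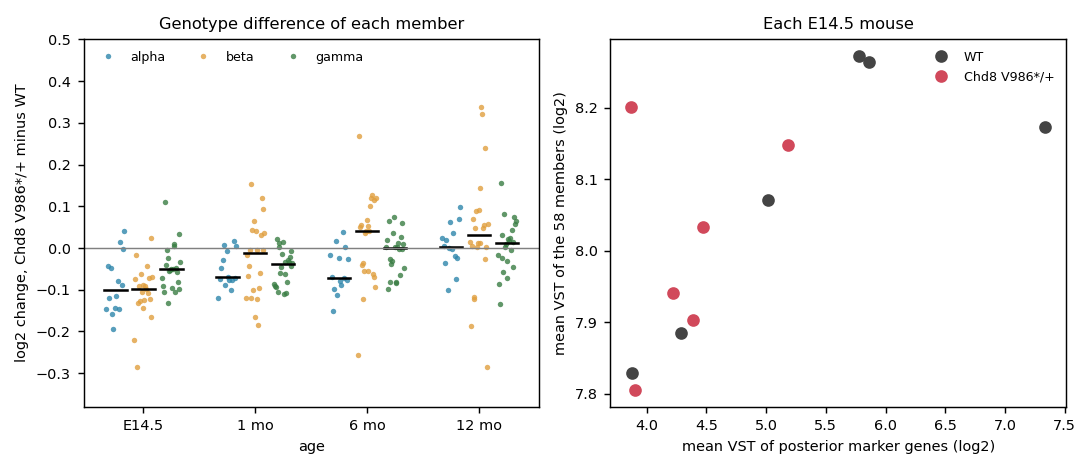
Left, log2 difference (Chd8 V986*/+ minus WT) of each member at each age by cluster, with black bars at the medians; right, mean VST expression of the 58 members against the mean of the posterior marker genes in each of the 12 E14.5 mice. At E14.5 50 of 57 differences are below 0. The 3 WT mice with the highest marker means are among the 4 mice with the highest member means. The other is HET replicate 2, with a member mean of 8.20 and the lowest marker mean of all, 3.87. At 12 months 20 of 58 differences are below 0, or 36 of 58 without WT replicate 6.

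Of all members, Pcdhb22 had the largest difference between the genotypes in its course from 1 to 12 months. WT mice fell by 0.57 from 1 to 12 months, and HET mice changed by -0.07 (SE 0.09, limma adjp 0.60). The difference between the genotype effects at 12 months and at 1 month was 0.51 (SE 0.14, unadjusted p = 0.00056, limma adjp 0.17), which did not pass. Over the 3 contrasts of the 12-month effect with a younger age, which share the 12-month mice, 0 members passed by limma (2 at an unadjusted p below 0.05 against E14.5, 3 against 1 month and 1 against 6 months, beside 11.5%, 11.1% and 8.68% of all genes), and 0.0635%, 0.00578% and 0.0578% of all genes did. Against 1 month, 1 member passed when replicate 3 was left out.

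The sign of the genotype difference was the same at all 4 ages in 8 of 57 members. It was below 0 throughout in Pcdha5, Pcdha11, Pcdhb13, Pcdhga2, Pcdhga9, Pcdhga11 and Pcdhgb5 (12.3%, against 8.74% of all genes) and above 0 throughout in Pcdhga12 (1.75%, against 8.87%). Of these only Pcdhb13 at E14.5, Pcdha11 at 6 months and Pcdhga11 at 12 months had an unadjusted p below 0.05 at an age.

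Members of one cluster varied together between mice of the same group. Over 48 mice, after the group means were removed, the median Pearson's r between pairs of members was 0.75 within alpha, 0.69 within gamma and 0.38 within beta. Between clusters it was 0.46 for alpha and beta, 0.48 for alpha and gamma and 0.31 for beta and gamma, and between a member and any other gene it was -0.01 to 0.00. That last median hides a wide spread of both signs. The 10th to 90th percentiles with other genes were -0.38 to 0.47 for alpha, -0.29 to 0.33 for beta and -0.39 to 0.46 for gamma members. In the 36 postnatal mice alone the values within clusters were 0.66, 0.56 and 0.20, and in the 12 E14.5 mice 0.86, 0.86 and 0.67. These values are descriptions, since the pairs share libraries, and alpha and gamma members share the reads of their constant exons. The spread between mice was also largest at E14.5, with a median SD over the members of 0.22 in WT and 0.20 in HET mice, against 0.10 to 0.16 in the 6 postnatal groups. Over all genes the median SD was 0.18 and 0.17 at E14.5 and 0.12 to 0.18 in the postnatal groups.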

How the data were processed

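RNA-seq was performed by the authors on polyA RNA of dissected cortex from 48 mice. The authors filtered and trimmed the reads, used STAR (2.5.2b), Salmon (0.11.3) and DESeq2 with mm9, and corrected for batch effects. The deposited values are variance-stabilized expression on a log2 scale. In them the mean over the 24 samples of replicates 1 to 3 equaled that over the 24 of replicates 4 to 6 for every gene (largest difference 3.4e-14). A difference between these sets had thus been removed, and an overall shift between them cannot be seen. Shifts between the sets within one age or genotype can remain. Reads of single genes are not given by the file, so depth per gene is unknown and precision rests on the spread between mice. The labels and the methods name different library kits.

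Samples were grouped by genotype and age from their titles. Each comparison was fitted with limma 3.58.1 in R 4.3.3 with the prior variance following mean expression, over all genes whose mean over the samples of the fit was at least 0.5 above the floor. Genotype was fitted on the 12 mice of each age, age steps on the 24 mice of each genotype, and differences of genotype effects on all 48 mice. The threshold was a Benjamini-Hochberg adjusted p (adjp) below 0.1 over all genes tested, and tests were two-sided. The fits were tested on simulated data. Log2 changes near the floor understate the change in counts.

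Members and gene lists were chosen with earlier results of these data known. Named members were the C-type genes, every member past the threshold between genotypes and the 3 with the smallest p in each direction, members without overlap between genotypes, and the 3 largest increases and decreases past the threshold in each WT age step. From the pathway lists up to 5 genes past the threshold by size were named. Members named beside these were chosen after their values were seen. Same-numbered WT and HET samples had a mean correlation of residuals of 0.23 at E14.5, with 4 of 6 pairs above 0.1, and of -0.03 to 0.05 at the other ages. The numbers were not taken to pair mice because not every pair was above 0.1. The E14.5 values leave a shared effect of the number possible at that age, where replicates 2 and 3 had the highest member means in both genotypes. Alternatives covered filters, variance priors, scaling, thresholds, the listed read depth of each library and posterior markers as covariates, the replicate sets, the replicate block and leaving out replicates. Separate litters are not given, and p-values measure the spread between these mice. Transcript windows and promoter letters were read from the mm9 genome and GENCODE annotation. All 58 members matched RefSeq, used for gene order.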

Additional observations from a re-analysis of the deposited data

Results flagged for a closer look

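In 15 of 224 groups of 6 mice tested, over 25 named members and the cluster means, 1 mouse stood apart from the other 5 by more than Dixon's 95% critical value, and chance flags about 1 in 20 groups. At E14.5, WT replicate 1 was lowest for Pcdhga11 at 9.92 (others 10.20 to 10.29), Pcdhga12 at 9.57 (others 9.79 to 9.93) and Pcdhgc3 at 11.84 (others 12.05 to 12.14). HET replicate 1 was lowest for Pcdhgb6 at 9.75 (others 10.12 to 10.30) and Pcdhgc3 at 11.81 (others 12.09 to 12.23). HET replicate 5 was lowest for Pcdhb14 at 5.82, and HET replicate 3 highest for Pcdhb6 at 6.15.

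At 1 month, HET replicate 3 was lowest for the mean of the gamma cluster at 9.61 (others 9.74 to 9.76) and for Pcdhga11 at 9.84. HET replicate 4 was highest for Pcdhac2 at 10.74 and HET replicate 5 for Pcdhb18 at 8.56. WT replicate 5 was lowest for Pcdhb1 at 2.21, near the floor, and WT replicate 3 for Pcdhb10 at 6.82. At later ages, HET replicate 2 was highest for Pcdhb3 at 8.14 at 6 months, and HET replicate 4 was lowest for Pcdhgb6 at 9.80 at 12 months.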

How the results depend on the processing

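Of 1064 values for named members across the alternatives, 1010 kept direction and side of the threshold, 47 kept direction and lost the threshold, 2 gained it and 5 changed sign. The sign changes were in differences that had not passed: Pcdhb8 at 1 month (-0.0078) and Pcdhb3 at 6 months (-0.029) with replicates 4 to 6 alone, and at E14.5 Pcdhgc3 (-0.0080) and Pcdhac2 (-0.0084) without WT replicate 1 and Pcdhac2 (-0.0098) without HET replicate 2 (ranges over all such fits -0.0080 to 0.088 for Pcdhgc3 and -0.0098 to 0.086 for Pcdhac2). Requiring a change of at least 1 left 7 members for E14.5 to 1 month in WT and 8 in HET mice, and 0 for 1 to 6 and 1 to 12 months in both genotypes, by construction. With 3 mice per group, replicates 1 to 3 alone gave 3 (WT, 1 to 6 months), 12 (WT, 1 to 12 months), 4 (HET, 1 to 6 months) and 11 (HET, 1 to 12 months) members, and replicates 4 to 6 alone 4 and 10 in WT mice for these comparisons. In one fit of all 48 samples 1 member, Pcdhb22, passed between genotypes at 12 months (adjp 0.081, and 1 member, adjp 0.086, with the replicate block), where 520 genes passed instead of 8; the cause was not tested. Leaving out replicates gave 0 to 1 members for HET 6 to 12 months and for the 12-month against the 1-month genotype effect, and 10 to 15 for WT 1 to 6 months. The replicate block within each fit gave 0 members between genotypes at all 4 ages and 49, 19 and 27 members for the WT steps to 1 month, 1 to 6 and 1 to 12 months, and so moved no count by over 1.5 times. With 6 mice per group, genotype differences of about 3 SE in single members did not pass, and depth per gene is unknown.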
